A study of Homo sapiens with 6 samples.

Results

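Kinesins are motor proteins that walk along microtubules or take them apart. The genes described here are 42 kinesin genes measured in AC16 cells. AC16 is a proliferating human line of ventricular cardiomyocyte origin that was made by fusing heart cells with virus-transformed fibroblasts. The genes were taken by gene symbol from the probe annotation, as every KIF or KIFC gene that was the only gene of a feature. A kinesin under another symbol, such as CENPE, was therefore not among them. 46 of the 70523 features met this rule, and a gene with several was represented by the one of highest mean signal over the 6 arrays. The named genes of the array were 22465 in all. Total RNA of cells held at 28 °C for 6 h (hypothermia, 3 arrays) was compared with that of cells held at 37 °C for 6 h (control, 3 arrays), in the same medium with serum and antibiotics. No genetic change or drug distinguished the groups. The values are log2 signals, so a difference of 1 is a doubling, and a log2 fold change is hypothermia minus control.

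In dividing cells a set of kinesins builds the spindle, moves and holds the chromosomes, and cuts the cell apart at the end of mitosis. These motors are made mainly in the G2 phase and mitosis, and their transcripts are known to depend on how many cells are dividing. Other kinesins carry mitochondria, vesicles and RNA along microtubules at every stage of the cycle, and a further group works in cilia. The 42 genes were therefore described as 7 mitotic kinesins (KIF11, KIF14, KIF18A, KIF20A, KIF23, KIF2C and KIF4A), 8 other mitotic kinesins, 17 transport kinesins and 10 ciliary and other kinesins.

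None of the 42 kinesin genes passed the threshold, an adjusted p under 0.05 from limma over all features. The smallest adjusted p was 0.108, that of KIF24. Over all features 160 passed as higher at 28 °C (0.227%) and 417 as lower (0.591%). At an unadjusted p under 0.05 from limma, 2 kinesins were higher and 11 were lower, where the shares among all features were 5.41% for higher and 6.08% for lower. Dim features make up much of the array, and among named genes at or above the median feature, where 38 of the kinesins lay, these shares were 6.66% and 12.6%. The lower kinesins at that level were KIF14, KIF18A, KIF2C, KIF4A, KIF15, KIF2A, KIF3A, KIF3B, KIF13A, KIF24 and KIF27, and the higher ones were KIF2B and KIF19. With the background measure described below as a covariate, only 2 kinesins were lower and 2 higher at that level. In that fit 3713 of the 70523 features were lower and 3123 higher. The values below therefore describe sizes and intervals, and no single kinesin is called changed. Since these are bulk samples, fewer dividing cells and less of a transcript per cell cannot be told apart.

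All 3 hypothermia arrays lay below all 3 control arrays for 16 of the 42 kinesins (38.1%) and above them for 6. Among all features the shares were 8.49% below and 9.38% above. Among named genes at or above the median feature 18.2% lay below and 13% above. Of the 38 kinesins at or above it, 14 lay below (36.8%). Named genes with a mean signal of 8 to 10 lay below in 21.1% of cases.

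The deposited signals had been normalized across the arrays, so their likeness in overall level is no finding about the samples. The median signal of an array ranged from 3.39 to 3.41 in hypothermia and from 3.33 to 3.40 in control. The 11 brighter of the 23 background features, which no transcript should bind, averaged 6.40, 6.39 and 6.49 in hypothermia replicates 1, 2 and 3, and 6.20, 6.10 and 6.47 in control replicates 1, 2 and 3. Control replicates 1 and 2 were thus lower in this measure than the other 4 arrays, and its part in the results was not tested beyond the values given below with it as a covariate. Background features spanned 1.64 to 11.3, and a level at which a gene counts as detected could not be set from them. Of 13 measured cardiomyocyte markers, NPPB averaged 9.12 in hypothermia and 9.15 in control, and GATA4 averaged 6.88 in hypothermia and 6.73 in control. TTN, RYR2 and PLN, which belong to the contractile and calcium machinery of the working heart cell, had means of 2.37, 2.31 and 2.03 in hypothermia and 2.34, 2.28 and 2.09 in control. These lie under the median background feature of every array, 2.47 to 2.60. The fibroblast markers VIM and FN1 averaged 11 and 11.1 in hypothermia and 11 each in control. POSTN averaged 4.36 in hypothermia and 4.39 in control, and S100A4 averaged 3.30 in hypothermia and 3.39 in control. The other measured fibroblast markers were COL1A1, COL1A2, THY1, DDR2 and PDGFRB. They averaged 10.6, 8.15, 8.19, 7.1 and 7.23 in hypothermia and 10.5, 8.11, 8.15, 7.21 and 7.14 in control. Of 11 leukocyte markers, PTPRC, which marks leukocytes as a whole, averaged 2.20 in hypothermia and 2.17 in control, but CD68, which other cell types also express, averaged 8.62 in hypothermia and 8.49 in control. No marker passed the threshold, and the median log2 fold change was 0.0888 for 13 cardiomyocyte, 0.0397 for 9 fibroblast, 0.0659 for 11 leukocyte and 0.0231 for 6 endothelial markers.

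Stretches of genome in front of several kinesin genes are given first, because the promoters differed between the classes. The classes were drawn by function in mitosis, and the elements below are known from such genes. The difference is therefore not independent of how the classes were drawn, and it was not tested. Genes of the G2 phase and mitosis often carry a cell cycle genes homology region (CHR), with the letters TTTGAA or TTCGAA, which DREAM and B-MYB complexes bind through LIN54, and a CCAAT box, which NF-Y binds. The sequences are the reference of GRCh38.p14 from RefSeq, written on the strand of the gene. They run over the 100 bases before the annotated start, and the capitals mark CHR letters (TTTGAA, or TTCAAA when read from the opposite strand) and CCAAT boxes (CCAAT or ATTGG). KIF18A, KIF11, KIF4A and KIF23 are mitotic kinesins with both elements. They lie at chr11:28108157-28108256 on the minus strand, and at chr10:92593030-92593129, chrX:70290004-70290103 and chr15:69414249-69414348 on the plus strand.
KIF18A: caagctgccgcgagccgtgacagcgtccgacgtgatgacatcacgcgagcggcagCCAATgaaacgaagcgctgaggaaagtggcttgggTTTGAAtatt
KIF11: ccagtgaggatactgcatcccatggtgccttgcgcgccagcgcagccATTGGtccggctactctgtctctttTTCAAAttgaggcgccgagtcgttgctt
KIF4A: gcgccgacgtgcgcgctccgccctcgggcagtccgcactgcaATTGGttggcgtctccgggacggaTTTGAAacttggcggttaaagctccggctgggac
KIF23: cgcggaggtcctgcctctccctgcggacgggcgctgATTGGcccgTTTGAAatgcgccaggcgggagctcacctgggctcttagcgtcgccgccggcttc

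KIF15, of the other mitotic kinesins, had CHR letters and no CCAAT box in its whole window (chr3:44761694-44761793, plus strand). KIF20A had 2 CCAAT boxes and neither TTTGAA nor TTCGAA (chr5:138179012-138179111, plus strand). No other letters were searched for as a CHR, so its lack of one is not shown. The transport kinesin KIF3B is shown for contrast, with a CCAAT box alone (chr20:32277551-32277650, plus strand).
KIF15: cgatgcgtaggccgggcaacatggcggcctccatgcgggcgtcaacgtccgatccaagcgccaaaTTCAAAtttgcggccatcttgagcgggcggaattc
KIF20A: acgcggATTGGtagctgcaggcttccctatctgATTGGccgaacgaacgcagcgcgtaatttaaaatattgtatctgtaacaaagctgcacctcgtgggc
KIF3B: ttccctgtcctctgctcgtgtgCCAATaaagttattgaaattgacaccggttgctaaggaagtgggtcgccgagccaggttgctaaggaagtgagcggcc

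In KIF14 and KIF24 the CHR letters began 1 base after the annotated start, so 30 bases around it are shown (chr1:200620734-200620763 and chr9:34329251-34329280, both on the minus strand). KIF14 had TTTGAA on the opposite strand, and KIF24 had TTCGAA, which reads the same on both strands.
KIF14: ggcggggcgcccaTTCAAAttgcggccttc
KIF24: cacagcgcgggcgTTCGAActggcgcttgg

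34 kinesin genes had a promoter window, which runs from 250 bases before to 50 after an annotated start, and these genes had 43 windows. Both strands were searched, and the motifs searched share no letters in a match shown here. TTTGAA was found in 5 of 7 mitotic kinesins (71.4%), 5 of 8 other mitotic kinesins (62.5%), 1 of 12 transport kinesins (8.33%) and 0 of 7 ciliary and other kinesins. It was found in 15.2% of all 35116 windows and in 18.2% of the 27305 genes that had one. TTCGAA was found in KIF22 and KIF24 only among the kinesins, and in 1.45% of all windows and 1.82% of genes with one. CCAAT was found in 6 of 7 mitotic (85.7%), 5 of 8 other mitotic (62.5%), 4 of 12 transport (33.3%) and 3 of 7 ciliary and other kinesins (42.9%), against 34.6% of all windows and 39.7% of genes with a window. KIF2C and KIF2A, which both encode microtubule depolymerases, had no match to any of the 3 motifs, as had KIF2B. A match is a run of letters and not a shown binding site.

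The CHR letters of the mitotic kinesins lay close to the start. They began 55 bases before it in KIF23, 34 in KIF4A, 28 in KIF11 and 10 in KIF18A. Among the other mitotic kinesins they began 35 bases before the start in KIF15 and 27 in a window of KIF22, and 2, 3 and 4 bases after it in KIF18B, KIF4B and KIFC1. KIF20B had them 24 and 30 bases after the start. In the transport kinesin KIF5B they began 140 bases before. Between 60 bases before and 10 after the start, a range chosen after these positions were seen, CHR letters of either form began in 5 of 7 mitotic, 5 of 8 other mitotic, 0 of 12 transport and 1 of 7 ciliary and other kinesins, and in 3.86% of all windows and 4.85% of genes with one.

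**Figure D1:**
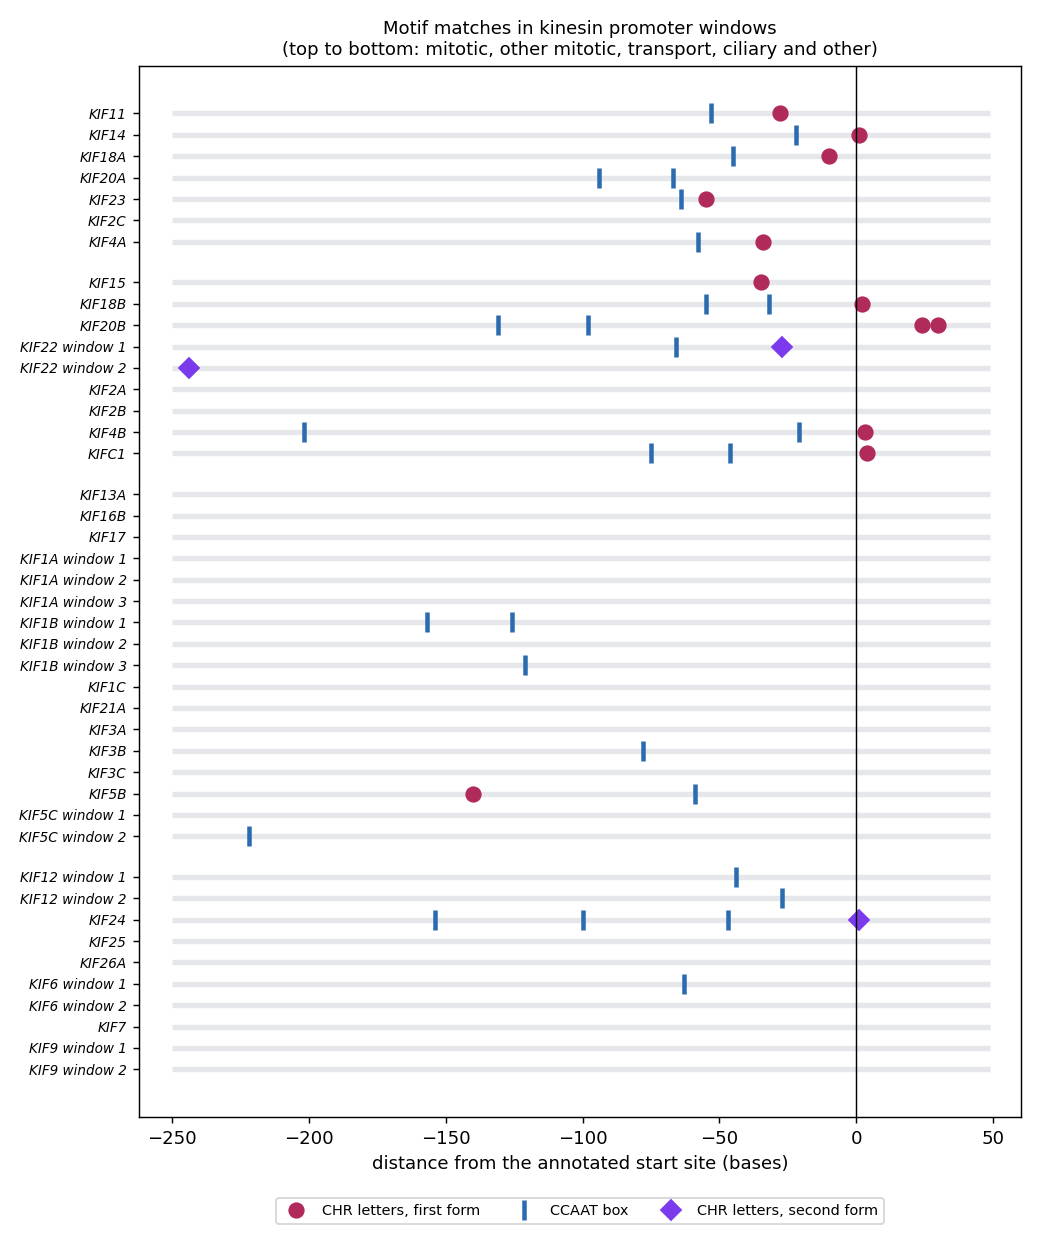
Each grey bar is a promoter window of a kinesin gene, with the distance from the annotated start in bases on the horizontal axis and the classes from top to bottom. Circles mark the first and diamonds the second form of the CHR letters, and vertical ticks mark CCAAT boxes. The CHR matches of the 7 mitotic kinesins, found in 5 of them, all begin between 55 bases before and 1 after the start.

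Of the mitotic kinesins, KIF18A and KIF14 had the most negative log2 fold changes. KIF18A, which moves to the plus ends of spindle microtubules and limits the swinging of chromosomes, had signals of 6.42, 6.41 and 6.37 in hypothermia and 6.65, 7.08 and 6.69 in control. All hypothermia arrays were below all control arrays, and control replicate 2 stood above the other 2 controls. The log2 fold change of KIF18A was -0.41 (standard error 0.115, 95% interval -0.67 to -0.14, adjusted p = 0.213 from limma). KIF14, a motor needed to finish cell division, had 5.72, 5.75 and 5.85 in hypothermia and 6.20, 6.56 and 5.88 in control. Hypothermia was again below control throughout, but control replicate 3 was only just above the highest hypothermia array. The log2 fold change of KIF14 was -0.44 (standard error 0.152, 95% interval -0.79 to -0.09, adjusted p = 0.318 from limma).

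KIF4A and KIF2C had smaller differences with the same order of arrays. KIF4A, a chromosome-bound motor that also shortens microtubules of the central spindle, had 8.24, 8.23 and 8.17 in hypothermia and 8.42, 8.56 and 8.34 in control. Its log2 fold change was -0.23 (standard error 0.0766, 95% interval -0.40 to -0.05, adjusted p = 0.308 from limma). KIF2C takes tubulin off microtubule ends and so helps to correct wrong attachments of chromosomes. Its signals were 8.41, 8.49 and 8.45 in hypothermia and 8.60, 8.75 and 8.55 in control, with no overlap. The log2 fold change of KIF2C was -0.19 (standard error 0.073, 95% interval -0.35 to -0.02, adjusted p = 0.384 from limma).

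The intervals of the other 3 mitotic kinesins held 0. KIF20A, which carries the chromosomal passenger complex to the central spindle, had 8.78, 8.84 and 8.76 in hypothermia and 8.93, 8.88 and 8.87 in control. The groups did not overlap, yet the log2 fold change was only -0.10 (95% interval -0.24 to 0.04, adjusted p = 0.572 from limma). KIF11 slides microtubules apart to give the spindle its 2 poles, and it had 8.30, 8.33 and 8.27 in hypothermia and 8.41, 8.80 and 8.23 in control. Control replicate 3 of KIF11 was below every hypothermia array and control replicate 2 was far above them, with a log2 fold change of -0.18 (95% interval -0.49 to 0.13, adjusted p = 0.651 from limma). KIF23, the motor of the centralspindlin complex, had 9.97, 9.98 and 9.90 in hypothermia and 9.88, 10.04 and 9.66 in control. Of the 7 it was the only one with a positive log2 fold change, 0.09 (95% interval -0.14 to 0.32, adjusted p = 0.761 from limma), and its groups overlapped.

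**Figure D2:**
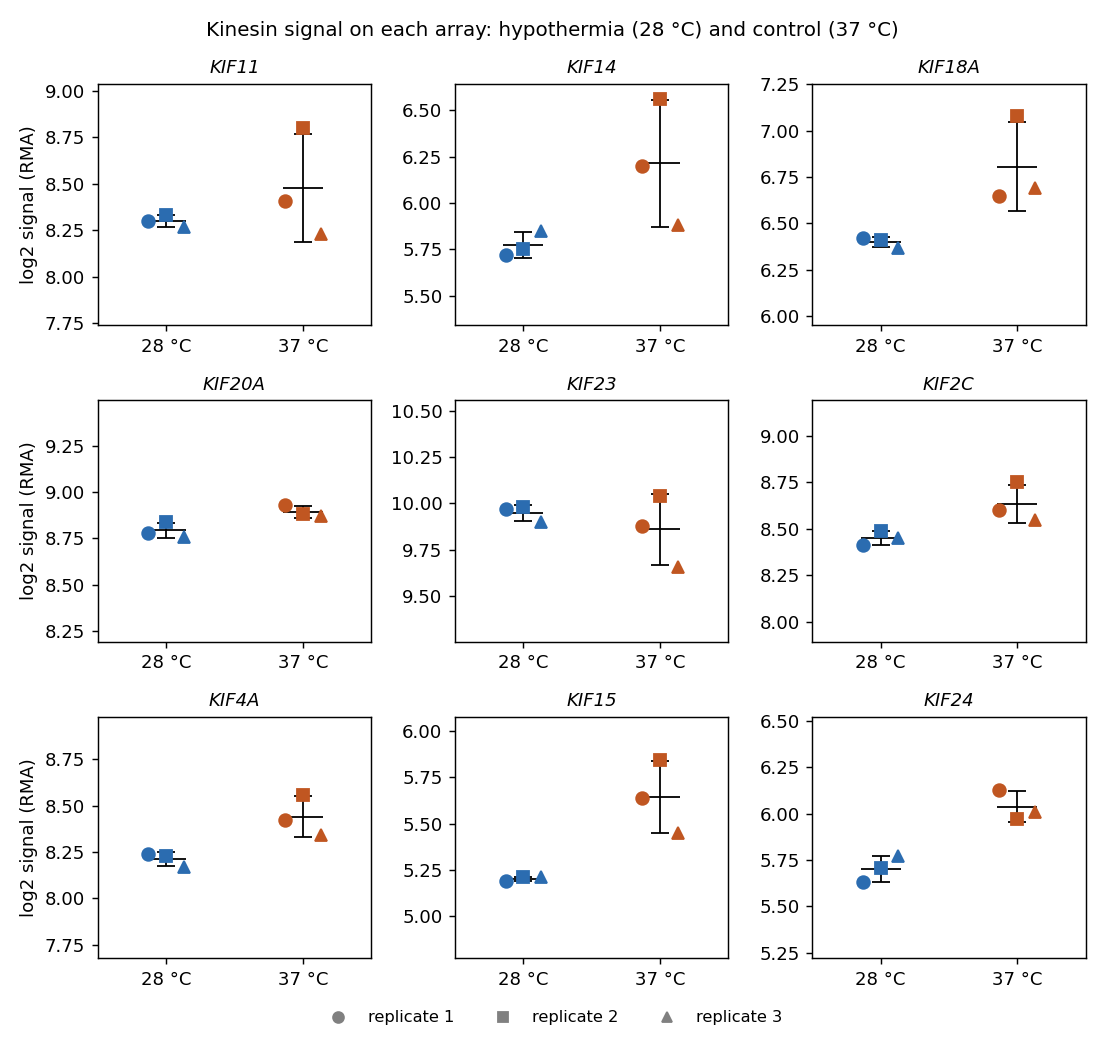
Log2 signals of 9 kinesins on each array, hypothermia (28 °C) on the left and control (37 °C) on the right of each panel, with marker shape for the replicate number and bars for the mean and SD of 3 arrays. Every panel spans the same range of log2 signal. Hypothermia arrays lie close together, and control replicate 2 is the highest control in 6 of the 7 mitotic kinesins.

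The control arrays carried most of the spread. Control replicate 2 was the highest control for 6 of the 7 mitotic kinesins (85.7%), which was the case for 34.6% of all features. Control replicate 3 was the lowest control for 6 of the 7, against 27.4% of all features. The SD over 3 arrays was smaller in hypothermia for 37 of the 42 kinesins (88.1%), and for 64.2% of all features and 77.9% of named genes at or above the median feature. The median SD of the mitotic kinesins was 0.0415 in hypothermia and 0.192 in control.

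Among the 8 other mitotic kinesins, KIF15 and KIF2A stood out in size. KIF15, which helps KIF11 to keep the spindle bipolar, had 5.19, 5.21 and 5.21 in hypothermia and 5.64, 5.84 and 5.45 in control. The hypothermia arrays of KIF15 differed by 0.023 at most and all lay below the controls. Its log2 fold change was -0.44 (standard error 0.098, 95% interval -0.67 to -0.21, adjusted p = 0.118 from limma), a linear fold of 0.737. It passed the threshold without control replicate 3 (adjusted p = 0.0369 from limma) and with array weights (adjusted p = 0.0281), and its adjusted p with 1 array left out ran up to 0.328. KIF2A, a depolymerase at spindle poles that also works in neurons, had 6.75, 6.83 and 6.76 in hypothermia and 7.03, 7.33 and 6.88 in control. Its groups did not overlap, and its log2 fold change was -0.30 (standard error 0.111, 95% interval -0.56 to -0.04, adjusted p = 0.353 from limma).

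The other 6 of this class were near 0 or dim. KIF22, a motor that pushes chromosome arms, and KIFC1, a minus-end motor that bundles spindle microtubules, each had a log2 fold change of -0.10 without overlap between groups. KIFC1 was covered by 4 features, of which 2 held identical values, and their log2 fold changes were -0.10, -0.10, -0.11 and 0.01. KIF20B and KIF18B had -0.10 and -0.05 with overlapping groups. KIF4B, a copy of KIF4A without introns whose probes can bind KIF4A transcripts, is uncertain and had 0.07. KIF2B had 3.45, 3.49 and 3.60 in hypothermia and 3.22, 3.33 and 3.30 in control, that is 0.23 as log2 fold change (adjusted p = 0.25 from limma) at a signal close to that of the median feature.

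The 17 transport kinesins were split, with 9 negative and 8 positive log2 fold changes between -0.25 and 0.17. The most negative were the motor subunits KIF3B and KIF3A, which form a heterotrimer with KIFAP3 that carries cargo in cilia and along other microtubules. KIF3B had 7.78, 7.78 and 7.65 in hypothermia and 8.03, 8.10 and 7.84 in control, a log2 fold change of -0.25 (95% interval -0.45 to -0.06, adjusted p = 0.303 from limma). KIF3A had 5.08, 4.94 and 5.01 in hypothermia and 5.23, 5.38 and 5.09 in control, a log2 fold change of -0.22 (95% interval -0.43 to -0.02, adjusted p = 0.389 from limma). Both were below control on every array. KIFAP3, the third subunit, also had -0.22 (adjusted p = 0.403 from limma) without overlap, whereas KIF3C, which pairs with KIF3A in another motor, had 0.03 with overlapping groups.

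KIF5B, the heavy chain of conventional kinesin found in most tissues and a carrier of mitochondria, had 9.51, 9.52 and 9.57 in hypothermia and 9.71, 9.98 and 9.49 in control. Control replicate 3 was below every hypothermia array, and the log2 fold change was -0.19 (95% interval -0.46 to 0.07, adjusted p = 0.569 from limma). Its neuronal relatives KIF5A and KIF5C had 0.03 and -0.08. KIF13A, a motor of recycling endosomes, had 6.45, 6.44 and 6.41 in hypothermia and 6.70, 6.71 and 6.50 in control, without overlap and with -0.20 as log2 fold change (adjusted p = 0.365 from limma). KIF1B, KIF13B and KIF16B had -0.12, -0.08 and -0.07, and KIF1C had 0.03, all with overlap. On the positive side were KIFC2 with 0.17 and KIFC3 with 0.10, both minus-end motors whose hypothermia arrays all lay above control (adjusted p = 0.435 and 0.601 from limma), and KIF1A with 0.13. KIF17 and KIF21B each had 0.08. KIF21A had -0.12 at a mean signal of 2.65, close to the median background feature.

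Of the 10 ciliary and other kinesins 8 had positive log2 fold changes, as had 41998 of the 70523 features, and KIF24 was the main exception. KIF24 acts at centrioles, where it trims microtubules and restrains the growth of cilia in cycling cells. Its signals were 5.63, 5.71 and 5.77 in hypothermia and 6.13, 5.97 and 6.01 in control. The groups were separated by a gap larger than the range of either one. The log2 fold change was -0.33 (standard error 0.0724, 95% interval -0.50 to -0.17, adjusted p = 0.108 from limma), and it passed with array weights (adjusted p = 0.0347) but in no fit with 1 array left out (adjusted p = 0.0959 to 0.328). KIF19, which limits the length of cilia in mice, had 5.26, 5.26 and 5.31 in hypothermia and 5.03, 5.02 and 5.19 in control, with 0.20 as log2 fold change (adjusted p = 0.343 from limma). KIF12 and KIF26B also lay above control on every array, with 0.15 and 0.06. KIF25, KIF26A, KIF9, KIF7 and KIF6 had 0.17, 0.10, 0.08, 0.06 and 0.05 with overlap, and a second feature of KIF7, a regulator of Hedgehog signalling, had 0.16. KIF27, a relative of KIF7, had -0.15 without overlap at a mean signal of 2.68. KIF16B, KIF21A, KIF27 and KIF6 were the 4 kinesins below the median feature.

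**Figure D3:**
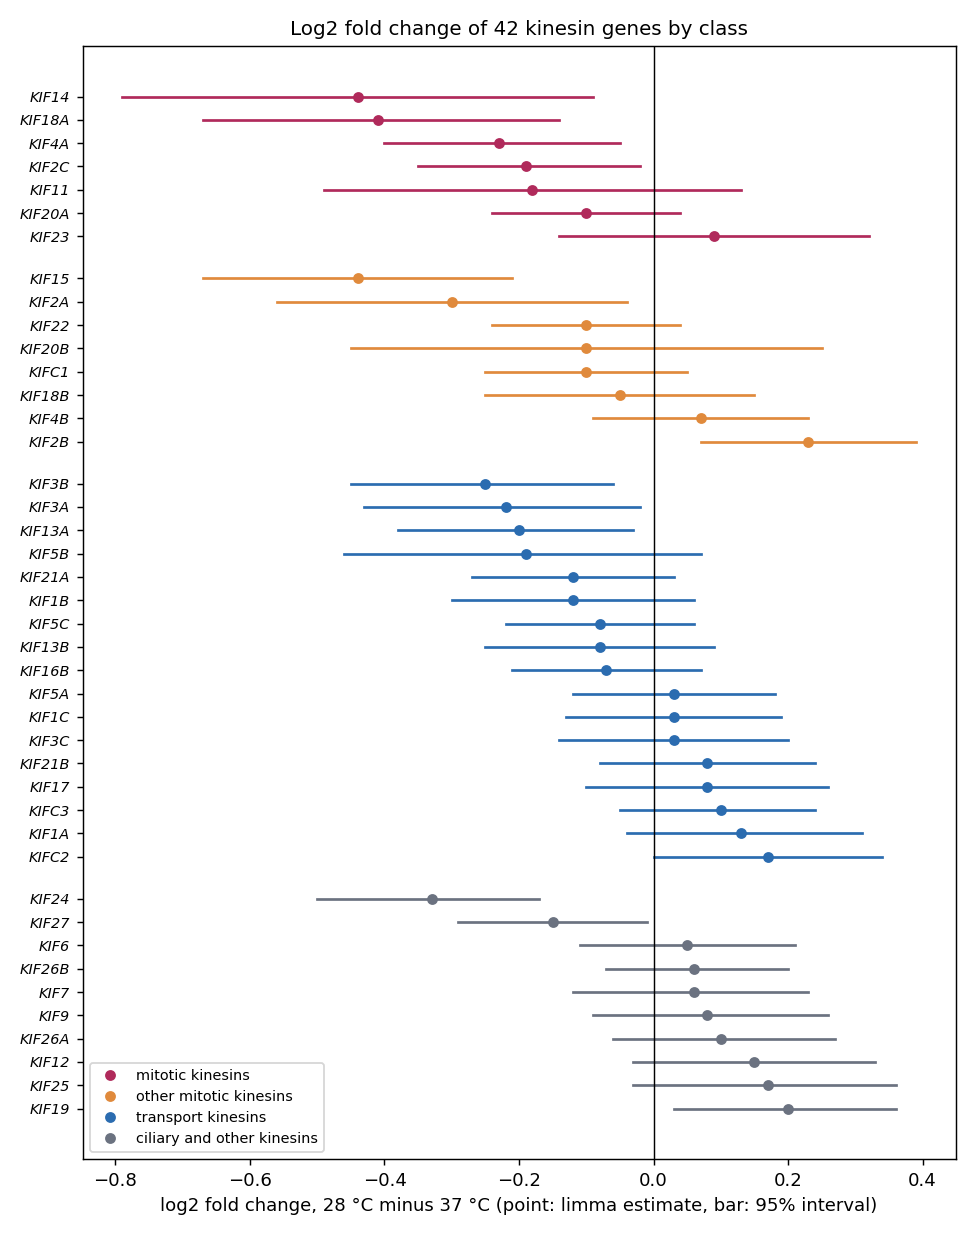
Log2 fold changes of the 42 kinesin genes, 28 °C minus 37 °C, as points with 95% intervals from limma, grouped by class and ordered within it. Intervals of 4 of the 7 mitotic kinesins and 3 of the 17 transport kinesins lie wholly below 0, and no gene passed after adjustment over all features. Among all features 6.08% had an unadjusted p under 0.05 from limma as lower.

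The median log2 fold change was -0.186 for the 7 mitotic kinesins, -0.1 for the 8 other mitotic, -0.0685 for the 17 transport and 0.0748 for the 10 ciliary and other kinesins. The median over all features was 0.0262. Named genes with a mean signal of 8 to 10, the range that holds 5 of the 7 mitotic kinesins, had a median of -0.0345. The ciliary and other kinesins were dimmer, with a median mean signal of 4.79. Among all features, those with a mean signal of 4 to 5 had a median of 0.0645, and those with 5 to 6 had 0.0524. In the mitotic class 6 of 7 were negative, 4 had an unadjusted p under 0.05 as lower and 5 lay wholly below control. In the transport class these counts were 9, 3 and 5 of 17. Among all features 28525 of 70523 were negative, 6.08% had an unadjusted p under 0.05 from limma as lower and 8.49% lay wholly below control. Among named genes at or above the median feature, 12.6% had such a p as lower and 18.2% lay wholly below control. Mitotic minus transport gave -0.118 for the medians, with no test, because the genes of a class are not replicates. The transport median changed sign when KIF16B and KIF21A, which lay below the median feature, were left out. The other 15 members had a median of 0.0282, with 7 negative and 8 positive.

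**Figure D4:**
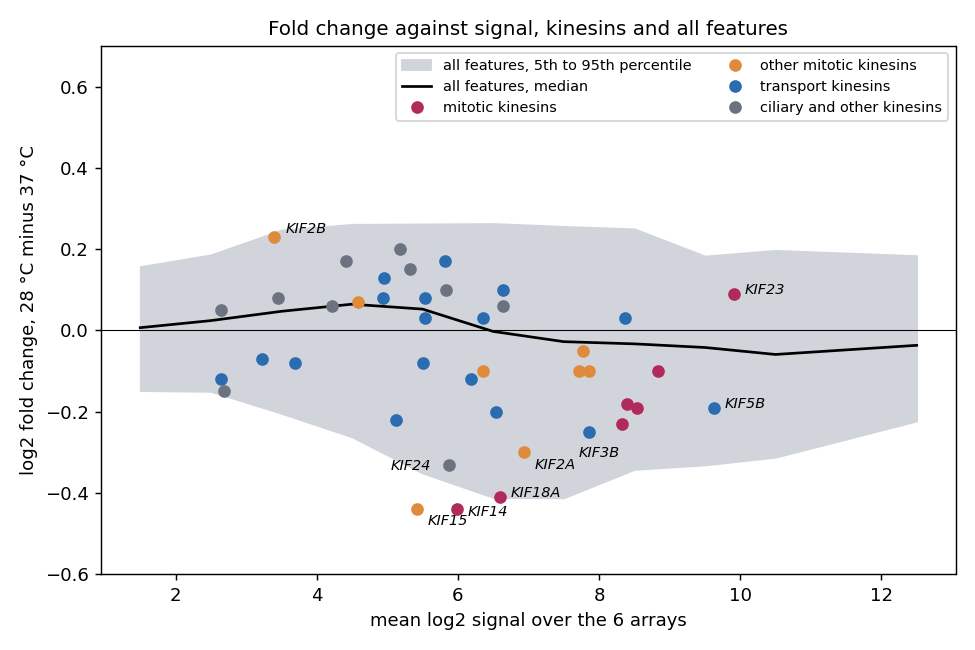
Log2 fold change (28 °C minus 37 °C) against the mean log2 signal of each kinesin gene, coloured by class. The grey band is the 5th to 95th percentile and the line the median of all features in bins of signal. KIF15 and KIF14 lie below the band and KIF18A at its edge, while KIF23 and most transport kinesins lie inside it.

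The same comparison was made on each array, with every gene centred on its mean over the 6 arrays. The median of the mitotic kinesins was -0.0915, -0.0577 and -0.116 in hypothermia replicates 1, 2 and 3, and 0.0562, 0.238 and 0.00901 in control replicates 1, 2 and 3. The transport kinesins had -0.0187, -0.0236 and -0.0329 in hypothermia and 0.064, -0.0162 and -0.011 in control. Both classes were thus lower on each hypothermia array than on any control array, the transport class by a narrow margin. The mitotic minus transport value was -0.0728, -0.0341 and -0.083 in hypothermia and -0.00787, 0.254 and 0.02 in control, and control replicate 2 stood apart from the other 2 controls. Without control replicate 2 the difference of the medians between groups was -0.0616, without control replicate 1 it was -0.178, and without control replicate 3 it was -0.22. It was -0.0493 with quantile normalization of the arrays, and -0.0348 with the 8 other mitotic kinesins added to the 7, whose joint median was -0.103. With the mean of the brighter background features as a covariate the mitotic median was -0.111 and the transport median -0.00496, no kinesin passed, and none of the 7 mitotic kinesins had an unadjusted p under 0.05 as lower. In that fit KIF11 had 0.05 and KIF23 had 0.26 (unadjusted p = 0.00629 and adjusted p = 0.257 from limma). Of the 7 mitotic kinesins 1, KIF23, thus had an unadjusted p under 0.05 as higher.

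**Figure D5:**
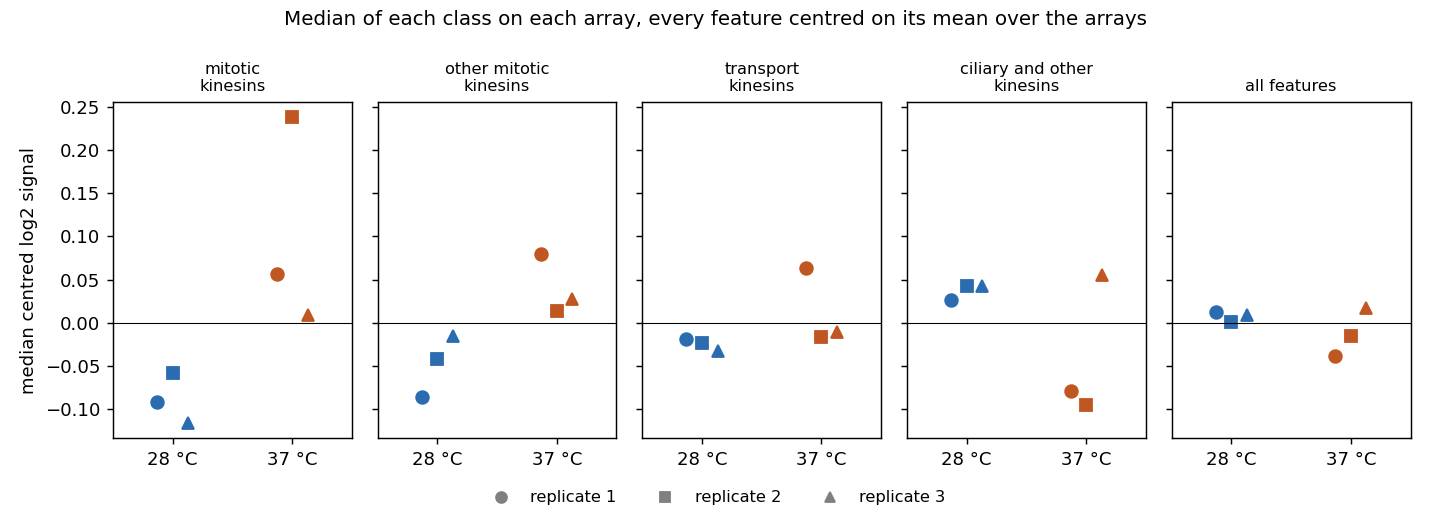
Median over the genes of each class on each array after centring every gene on its mean over the 6 arrays, in log2 units, with hypothermia (28 °C) left of control (37 °C) and marker shape for the replicate number. The mitotic kinesins lie at -0.116 to -0.0577 in hypothermia and at 0.00901 to 0.238 in control, with control replicate 2 on top.

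Partners of these motors were counted in 4 lists, of which 80 genes were measured, and none passed the threshold. Their counts at an unadjusted p under 0.05 from limma stand beside 6.08% lower and 5.41% higher among all features, and 12.6% lower and 6.66% higher among named genes at or above the median feature. Of 23 spindle and midzone partners 19 were negative, 5 (21.7%) had an unadjusted p under 0.05 as lower and 0 as higher, and the median log2 fold change was -0.113. Negative values were also found in 28525 of the 70523 features and in 873 of the 1455 named genes with a mean signal of 8 to 10. The list included the kinesin CENPE, which had -0.15 with overlapping groups. The smallest p belonged to KNSTRN, a kinetochore protein that holds the spindle, with 7.93, 8.03 and 7.96 in hypothermia and 8.41, 8.49 and 8.25 in control. Its log2 fold change was -0.41 (adjusted p = 0.0752 from limma). SPDL1, which brings dynein to kinetochores, had 7.06, 7.02 and 7.03 in hypothermia and 7.51, 7.77 and 7.30 in control, that is -0.49 as log2 fold change (adjusted p = 0.127 from limma). Both passed without control replicate 3, with adjusted p = 0.035 for KNSTRN and 0.0363 for SPDL1. RACGAP1, which forms centralspindlin with KIF23, had -0.10, and PRC1, which recruits KIF4A and KIF14 to the central spindle, had -0.11. Both were named after their values were seen.

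Of 21 light chains and cargo adaptors 13 were positive, as were 41998 of the 70523 features. In this list 4 (19%) had an unadjusted p under 0.05 from limma as lower and 0 as higher, and the median was 0.0589. The smallest p was that of TRAK2, which links kinesin to mitochondria, with 6.88, 6.83 and 6.80 in hypothermia and 7.22, 7.31 and 7.12 in control. The log2 fold change of TRAK2 was -0.38 (adjusted p = 0.0684 from limma, and 0.044 without control replicate 3). RHOT1, the mitochondrial GTPase to which TRAK proteins bind, had 6.43, 6.35 and 6.28 in hypothermia and 6.62, 6.83 and 6.49 in control, that is -0.29 as log2 fold change (adjusted p = 0.289 from limma). Their paralogs TRAK1 and RHOT2, named after their values were seen, had 0.06 and 0.10 with overlap.

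Of 22 genes of cytoplasmic dynein and dynactin, the motor that walks the other way, 14 were negative, as were 28525 of the 70523 features. In this list 5 (22.7%) had an unadjusted p under 0.05 from limma as lower and 0 as higher, and the median was -0.0515. DYNC1LI2, a light intermediate chain that joins dynein to cargo, had 7.77, 7.71 and 7.74 in hypothermia and 8.08, 8.19 and 7.99 in control, that is -0.35 as log2 fold change (adjusted p = 0.0981 from limma). DYNLL1, a light chain, had 7.94, 7.98 and 7.93 in hypothermia and 8.14, 8.18 and 8.13 in control, that is -0.20 as log2 fold change (adjusted p = 0.245 from limma). Both lay below control on every array, while the heavy chain DYNC1H1 had -0.01 and was named after its value was seen.

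The regulators of G2/M gene transcription were a list of DREAM and B-MYB complex members, E2F factors, FOXM1 and CDKN1A. Of the 14 measured 10 were negative, as were 28525 of the 70523 features. In this list 4 (28.6%) had an unadjusted p under 0.05 from limma as lower and 2 (14.3%) as higher, and the median was -0.128. E2F4, a repressing E2F of the DREAM complex, had 8.12, 8.23 and 8.22 in hypothermia and 8.61, 8.43 and 8.53 in control, that is -0.33 as log2 fold change (adjusted p = 0.112 from limma). CDKN1A, the p21 inhibitor of cyclin-dependent kinases, had 7.07, 7.03 and 7.08 in hypothermia and 6.83, 6.70 and 6.88 in control, that is 0.26 as log2 fold change (adjusted p = 0.189 from limma). FOXM1 and MYBL2, which activate genes of mitosis and were named after their values were seen, had 0.08 and 0.17 (adjusted p = 0.684 and 0.379 from limma).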

How the data were processed

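The total RNA of AC16 cells was hybridised to 6 Affymetrix arrays. The authors deposited log2 signals that RMA had background-corrected, normalized across the arrays and summarised by feature. For RMA, the sources used here give neither version nor settings, and no further normalization was applied. All 70523 features entered one lmFit and eBayes fit of group alone (limma 3.58.1, R 4.3.3), and p-values were adjusted by the Benjamini-Hochberg method across that whole set. Adjusted p-values and 95% intervals come from this fit. The fits were also run on simulated data with independent normal values and equal variance in both groups. In the real arrays the SD was often smaller in hypothermia, so that run checked the calculation only. The paper names a random variance model, which was run as an alternative.

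Symbols came from the platform annotation, which gave 1 symbol for 23781 features. All 42 kinesin symbols were found in the RefSeq table of GRCh38.p14, and promoter windows came from RefSeq with the same build. The genes and lists were chosen with earlier results of these data known. Values of every array were given for the 7 mitotic kinesins of the rule, for the 5 kinesins with the largest absolute log2 fold change, and for the 2 genes with the smallest p in each partner list, and for some further kinesins chosen after their values were seen. 9 of the 89 genes of the partner lists, and 1 gene each of the cardiomyocyte, fibroblast and leukocyte marker lists, were not analysed here. Whether replicate samples came from separate cultures is not stated, so the p-values measure only a spread between samples that may be technical. The number of arrays limits the precision. Alternatives were other normalizations, filters on dim features, tests, thresholds, a replicate block, array weights, a background covariate and leaving out each array.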

Additional observations from a re-analysis of the deposited data

How the results depend on the processing

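No kinesin passed as higher or lower under quantile normalization, median centring, filters on dim features, an intensity trend, the random variance model, a plain t-test with Benjamini-Hochberg adjustment, the replicate block, the background covariate or an adjusted p under 0.1. With array weights 2 passed as lower, KIF15 and KIF24. With 1 array left out, 0 to 1 passed as lower and 0 as higher, the 1 being KIF15 without control replicate 3. Of the partners, KNSTRN, SPDL1, TRAK2, DYNC1LI2 and E2F4 passed with array weights, and KNSTRN and TRAK2 with the filter at the 50th percentile. At an unadjusted p under 0.05, limma gave 2 higher and 11 lower kinesins, and a plain t-test per feature gave 3 higher and 12 lower. With the background covariate, limma gave 2 higher and 2 lower at that level.

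Over all features, 160 were higher and 417 lower. Array weights gave 379 higher and 1107 lower, the background covariate 66 and 105, the filter at the 50th percentile 249 and 628, and an adjusted p under 0.1 gave 308 and 775. The plain t-test with adjustment gave 0 and 0. At an unadjusted p under 0.05 it gave 3479 and 3708, and limma 3817 and 4286. With 1 array left out the counts ran over 60 to 214 higher and 112 to 799 lower, the highest without control replicate 3 and the lowest without hypothermia replicate 2.

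The mitotic median log2 fold change was -0.277 to -0.128 with 1 array left out, and the mitotic minus transport difference -0.22 to -0.0616. That difference was -0.0493 with quantile normalization, -0.0348 with the other mitotic kinesins added, and -0.214 with members at or above the median feature. The transport median was -0.0738 to -0.0345 with 1 array left out, -0.105 with median centring, -0.00496 with the covariate, and 0.0282 with the filter at the 50th percentile or with the 15 members at or above the median feature, which drop KIF16B and KIF21A.

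12 kinesins changed sign under some alternative, and none of them passed the threshold. With the background covariate KIF11 had 0.05, KIF20B 0.14, KIF13B 0.00, KIF17 -0.01, KIF6 -0.02, KIF7 -0.03 and KIF9 -0.02. With 1 array left out at a time, KIF23 ran from -0.01 to 0.18, KIF18B from -0.13 to 0.02, KIF20B from -0.25 to 0.08, KIF1C from -0.01 to 0.07, KIF3C from -0.02 to 0.08, KIF5A from -0.00 to 0.05 and KIF7 from -0.00 to 0.11. KIF18B turned without control replicate 1, KIF23 without control replicate 3 and the other 5 without control replicate 2. KIF1C had -0.01 and KIF3C -0.03 with array weights, and KIF1C, KIF3C and KIF5A each had -0.01 with median centring. The cause was not tested.

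Deviations of same-numbered arrays correlated at -0.0817, 0.114 and 0.216, so the numbers were not taken to pair the samples. With the replicate block 122 features were higher and 304 lower, 0 kinesins passed in either direction, and the mitotic and transport medians were -0.186 and -0.0685. The adjusted p of KIF15 was 0.133 and that of KIF24 was 0.183 with the replicate block. With 3 arrays a group and signals near the background for KIF21A, KIF27 and KIF6, small differences in these genes could not be resolved.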
